A study of Mus musculus with 12 samples.

Results

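The 10 noncoding genes Gas5, Snhg1, Snhg3, Snhg5, Snhg6, Snhg8, Snhg12, Snhg15, Zfas1 and Epb41l4aos were described in mouse B lymphocytes with and without Pdap1. They were chosen by symbol, as known spliced host genes of small nucleolar RNAs (snoRNAs) with no long open reading frame, and each was matched to 1 Ensembl identifier among the 55536 features of the count table. RNA was sequenced from cultures of 6 C57BL/6 mice, 3 control mice and 3 Pdap1-deficient mice (Pdap1F/F), harvested at 48 h. Each mouse gave 1 culture with LPS and IL-4 (LPS-IL-4, a switch to IgG1) and 1 with LPS, BAFF and TGFβ (LPS-BAFF-TGFβ, a switch to IgG2b), which makes 12 libraries in 4 groups of 3. All 6 mice carried 1 copy of an allele that expresses Cre recombinase in B cells, so the floxed Pdap1 gene was the difference between the genotypes. The study's methods describe mice of both sexes in age-matched groups, and the ages of these 6 animals were not given separately. The labels name CH12, a B lymphoma line, for every library and a stranded mRNA kit, while the study's methods describe primary splenic B cells and a stranded total RNA kit. Mice that share a number in the 2 genotypes are different animals, whereas the cultures of 1 genotype that share a number came from 1 mouse.

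snoRNAs guide the chemical modification of ribosomal RNA. Box C/D snoRNAs direct ribose methylation and box H/ACA snoRNAs direct pseudouridylation, and in vertebrates most of them are cut out of introns of a host transcript. The spliced exons of many noncoding hosts are exported and engaged by ribosomes at short reading frames, and are then degraded by translation-dependent nonsense-mediated decay (NMD), so that their level depends on both transcription and decay. Many hosts, like the messenger RNAs of ribosomal proteins, begin with a C followed by pyrimidines (a terminal oligopyrimidine or TOP start). Gas5 was named for its rise in growth-arrested cells, and Zfas1 for its place opposite the start of Znfx1.

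The start regions are shown because a TOP start is described for many hosts and for ribosomal protein genes. RefSeq windows on GRCm38.p6, of 250 bases before and 50 after each annotated start, were available for 8 members, with 2 windows for Gas5. Snhg6 and Epb41l4aos had none. A C followed by at least 4 more pyrimidines, within 5 bases of the annotated start, was found in 4 of the 9 member windows, in 44.3% of the 70 windows of ribosomal protein genes and in 18.3% of all 32851 windows. In the lines for these 4 windows, each of 40 bases with 15 of them before the annotated start, capitals mark that pyrimidine run.
Gas5 (chr1:161035151-161035190, plus strand): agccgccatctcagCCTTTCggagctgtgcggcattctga
Snhg12 (chr4:132308663-132308702, plus strand): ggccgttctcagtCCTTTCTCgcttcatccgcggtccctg
Snhg8 (chr3:123508312-123508351, minus strand): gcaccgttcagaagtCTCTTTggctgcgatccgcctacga
Snhg3 (chr4:132353662-132353701, minus strand): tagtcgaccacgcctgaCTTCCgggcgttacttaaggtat

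The cyclic AMP response element TGACGTCA, read on both strands, was found in the windows of Gas5 and Snhg15, in 8.57% of the ribosomal protein windows and in 1.79% of all windows. The 30 bases around it are given with the element in capitals, because these are the member windows with a rare motif.
Gas5 (chr1:161035109-161035138, plus strand, element 46 bases before the start): gctttgcgtctTGACGTCAcgaagacctta
Snhg15 (chr11:6528830-6528859, minus strand, element 88 bases before the start): cccaggggcgcTGACGTCAgtgtcttggag
CACGTG was found in the Snhg15 window and in 7.15% of all windows. TATAAA was found in the windows of Snhg1, Snhg3, Snhg5 and Snhg8 and in 13.6% of all windows. TTCCGG, the core of ETS factor sites, was found in 48.6% of the ribosomal protein windows, in 14.9% of all windows and, among members, in those of Snhg3 and Snhg5. These matches describe the sequences, and no binding was measured.

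Total counts were between 4579793 and 15869143 in 11 libraries and 69500640 in the LPS-BAFF-TGFβ library of control mouse 1, which stood apart. That library also had 3.38% of its counts in the ribosomal RNA gene CT010467.1. The LPS-BAFF-TGFβ library of Pdap1-deficient mouse 1 stood apart as well, with 1.80% in that gene, beside 0.0259% to 0.389% in the other 10 libraries, and with the highest mitochondrial share, 4.34%. Pdap1 stood at 92.98, 91.4 and 97.8 counts per 1000000 (CPM, with TMM-scaled totals) in the LPS-IL-4 controls and at 23.3, 27.2 and 29.9 CPM in the Pdap1-deficient cultures. In LPS-BAFF-TGFβ it stood at 199, 80.3 and 100.3 CPM in control mice 1, 2 and 3 and at 26.4, 26.0 and 23.0 CPM in the Pdap1-deficient mice. Among B cell markers, Ms4a1 stood between 464 and 1087 CPM in the 12 libraries and Cd22 between 132 and 351 CPM. T cell, NK cell and erythroid lists summed to at most 38.4 CPM. The 7 myeloid markers summed to between 9.08 and 80.1 CPM in 10 libraries, but in Pdap1-deficient mouse 2 to 312 CPM with LPS-IL-4 and to 549 CPM with LPS-BAFF-TGFβ.

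Of the 10 members, 9 passed the filter on low counts in each comparison. Snhg3 (chr4:132348014-132353686, minus strand) did not, with 1 count in all 12 libraries together, in the deepest. Its exons are shared with other genes. Of 986 exonic bases, 29.8% lie in same-strand exons of other genes and 71.5% in opposite-strand exons, with 135 bases free of both. The neighbour Rcc1 shares its strand and the noncoding gene Gm17300 lies opposite. Whether reads of Snhg3 were left out as ambiguous cannot be told from the table, since the counting mode and strand setting are not given in the sources used here.

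GENCODE annotates 34 snoRNA genes within the members on the same strand, and 2 of them had counts. The host counts cover annotated exons, retained introns included, and so do not separate spliced from unspliced RNA. Gas5 holds 10, Snhg1 8, Snhg12 5, Zfas1 3, Snhg3 and Snhg5 2 each, and the other 4 members 1 each. Because of retained-intron transcripts, 30 of the 34 lie inside an annotated host exon and 1 partly, and none of these 31 had a count. As for Snhg3, whether their reads were left out as ambiguous cannot be told. Of the 3 that lie in introns, Snora73b in Snhg3 had none, Snord87 in Snhg6 had 108 counts over 8 libraries and Gm23639 in Epb41l4aos had 326 over 12. Most of these counts, 95 and 275, came from the deep library. Snord87 is shown as the hosted snoRNA with counts whose boxes are plain to see, with box C and box D in capitals.
Snord87 (chr1:9942463-9942549, minus strand, GRCm38): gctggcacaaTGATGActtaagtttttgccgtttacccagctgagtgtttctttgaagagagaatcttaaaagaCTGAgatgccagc

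Levels between genes were compared per kb of exon not shared with same-strand genes, over the union of annotated transcripts. That union is as long as the gene, introns included, for Snhg1, Snhg8, Snhg12 and Zfas1, and not for the others, so the order of the levels depends on the annotation. In LPS-IL-4 controls, Snhg5 was highest at 57.6 ± 4.60 CPM per kb (SD, n = 3), followed by Gas5 at 47.1 ± 5.41, Zfas1 at 43.9 ± 2.31, Epb41l4aos at 38.0 ± 2.93 and Snhg1 at 37.0 ± 3.22 CPM per kb. Below these were Snhg15 at 34.0 ± 2.48, Snhg6 at 30.9 ± 2.76, Snhg8 at 21.1 ± 1.19 and Snhg12 at 18.6 ± 3.09 CPM per kb. Neighbours in this order differed by less than the sum of their SDs, except Snhg5 against Gas5, Zfas1 against Epb41l4aos and Snhg6 against Snhg8. With opposite-strand exons also left out, Snhg6 was at 34.8 ± 3.11 CPM per kb and changed places with Snhg15. Without length, Gas5 was the most counted member in these cultures, and Snhg8 and Epb41l4aos were the least counted of the 9.

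**Figure D1:**
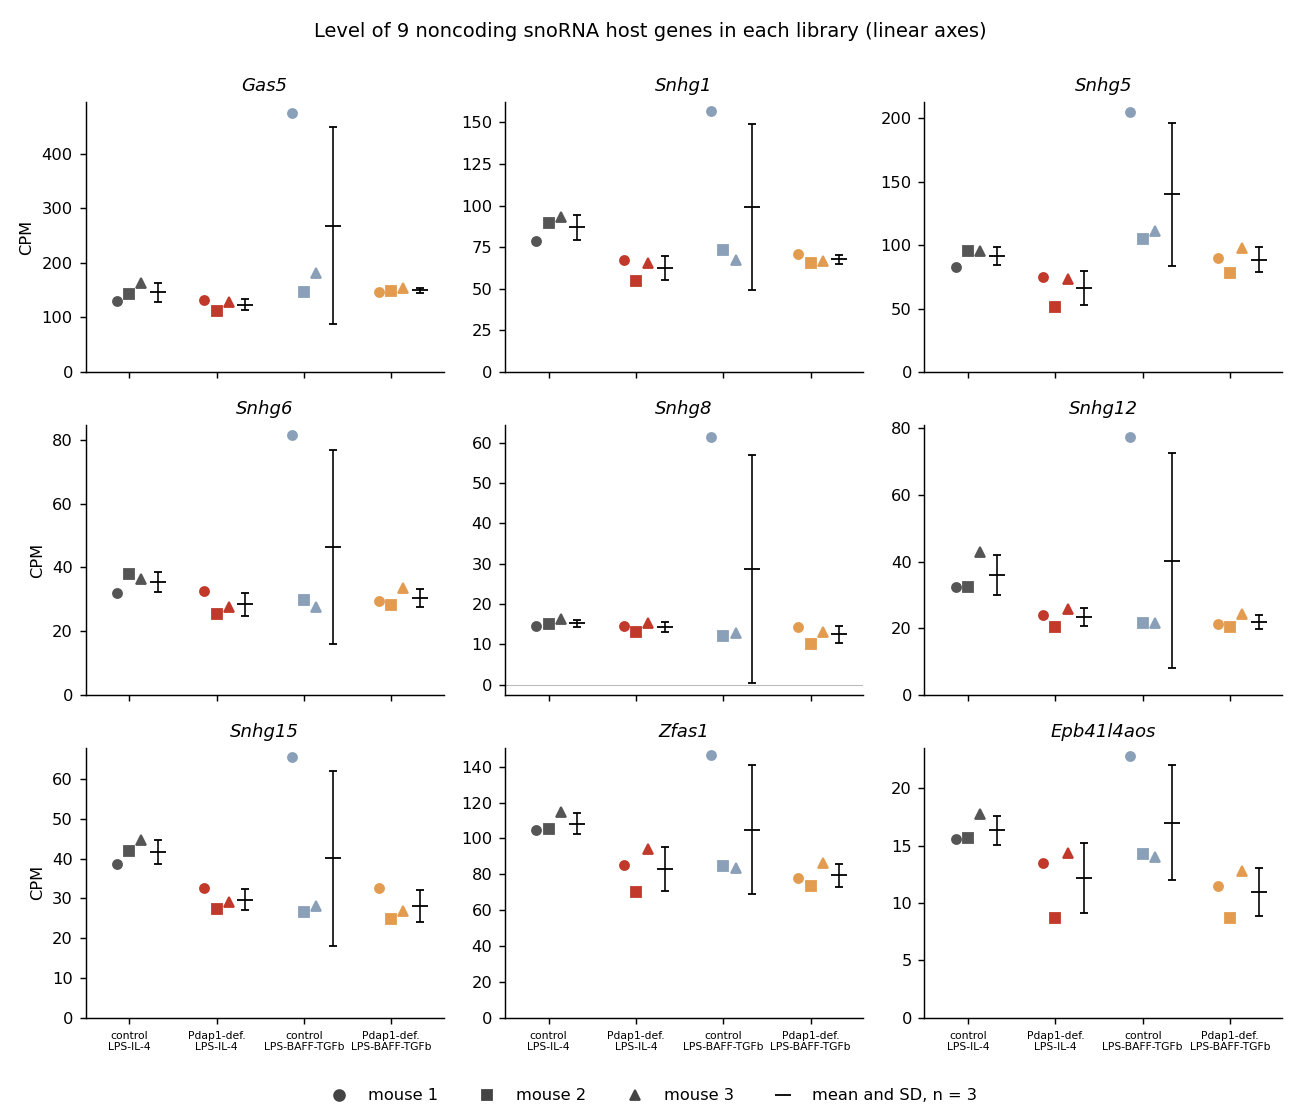
Level of the 9 counted host genes in CPM (linear axes) in each of the 12 libraries, with 1 symbol per mouse number and the mean and SD of each group of 3. The LPS-BAFF-TGFb library of control mouse 1 is the highest of the 12 for every one of the 9 genes, at 475 CPM for Gas5 and 61.3 CPM for Snhg8.

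The first comparison asked which hosts changed with the loss of Pdap1 in LPS-IL-4 cultures. Snhg12, Snhg15 and Snhg1 fell by 1.40- to 1.54-fold, all 9 counted members had fitted values below those of controls, and none was higher. The members called, 3 of 9, stand against 2.12% of all 15074 genes tested that were called lower, and 4.92% called in either direction. The median log2 fold change was -0.44 over the 9 members and 0.02 over all genes. In 6 members, Snhg1, Snhg5, Snhg12, Snhg15, Zfas1 and Epb41l4aos, every Pdap1-deficient library was below every control library, as was so for 16.1% of all genes. The mitochondrial share of counts moved with genotype in these cultures, at 2.34%, 1.99% and 2.24% in controls and 2.50%, 3.26% and 2.93% in Pdap1-deficient libraries, and its part in the result was not tested.

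Among the hosts of box C/D snoRNAs, Snhg1 stood at 78.4, 89.2 and 93.0 CPM in control mice 1, 2 and 3 and at 67.5, 54.5 and 65.3 CPM in the Pdap1-deficient mice. The groups did not overlap, and the log2 difference was -0.48 (SE 0.12, adjusted p = 0.0487, edgeR). Snhg5, host of Snord50a and Snord50b, stood at 83.0, 95.8 and 95.5 CPM against 74.7, 51.1 and 73.3 CPM. Again the groups did not overlap, but the difference of -0.47 (SE 0.15) did not pass the test (adjusted p = 0.0973, edgeR). Zfas1, host of Snord12, stood at 105, 105 and 115 CPM against 85.2, 70.0 and 94.2 CPM, a difference of -0.39 (SE 0.13, adjusted p = 0.0960, edgeR) without overlap.

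Gas5, with the largest number of snoRNAs, differed least among these hosts. It stood at 130.3, 143 and 163 CPM in controls and at 131, 111 and 128 CPM in Pdap1-deficient cultures, and the groups overlapped at mouse 1. The log2 difference was -0.25 (SE 0.12, adjusted p = 0.235, edgeR). Snhg6, host of Snord87, stood at 31.9, 38.0 and 36.4 CPM against 32.5, 25.5 and 27.5 CPM, with overlap and a difference of -0.32 (SE 0.13, adjusted p = 0.170, edgeR).

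Snhg12, which holds 3 H/ACA snoRNAs (Snora44, Snora61 and Snora16a, annotated as 2 genes) and the box C/D snoRNA Snord99, showed the largest difference of the 9. It stood at 32.4, 32.4 and 42.8 CPM in controls and at 24.0, 20.4 and 25.8 CPM in Pdap1-deficient cultures. The groups did not overlap, with a log2 difference of -0.63 (SE 0.15, adjusted p = 0.0394, edgeR). Snhg15, host of the H/ACA snoRNA Snora9 and known as a short-lived transcript, stood at 38.5, 42.0 and 44.6 CPM against 32.6, 27.4 and 29.1 CPM. Its log2 difference was -0.50 (SE 0.12, adjusted p = 0.04004, edgeR), also without overlap.

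Snhg8, host of Snora24, was the member with the smallest difference. It stood at 14.6, 14.9 and 16.2 CPM in controls and at 14.5, 13.0 and 15.3 CPM in Pdap1-deficient cultures, which overlap (log2 difference -0.11, SE 0.14, adjusted p = 0.690, edgeR). Epb41l4aos, which GENCODE places on the opposite strand beyond the 3′ end of Epb41l4a, stood at 15.6, 15.6 and 17.8 CPM against 13.5, 8.70 and 14.4 CPM. Its groups did not overlap, and its log2 difference of -0.44 (SE 0.20) did not pass the test (adjusted p = 0.208, edgeR).

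The Pdap1-deficient library of mouse 2, the one with the highest myeloid markers, was the lowest of its group for 9 of 9 members. Without it the median over members was -0.27 and 4 members passed the test, all lower. Calls over all genes rose as well, from 741 of 15074 to 1459 of 15226, 684 of them lower. No member passed once control mouse 1, 2 or 3 or Pdap1-deficient mouse 3 was left out, although each of the 9 differences stayed negative. Only 69 to 163 of all genes were called in these fits. DESeq2 called 4 of the 9, adding Snhg5, with 8.9% of genes called. In bulk RNA, fewer cells of a type and less RNA per cell cannot be told apart.

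**Figure D2:**
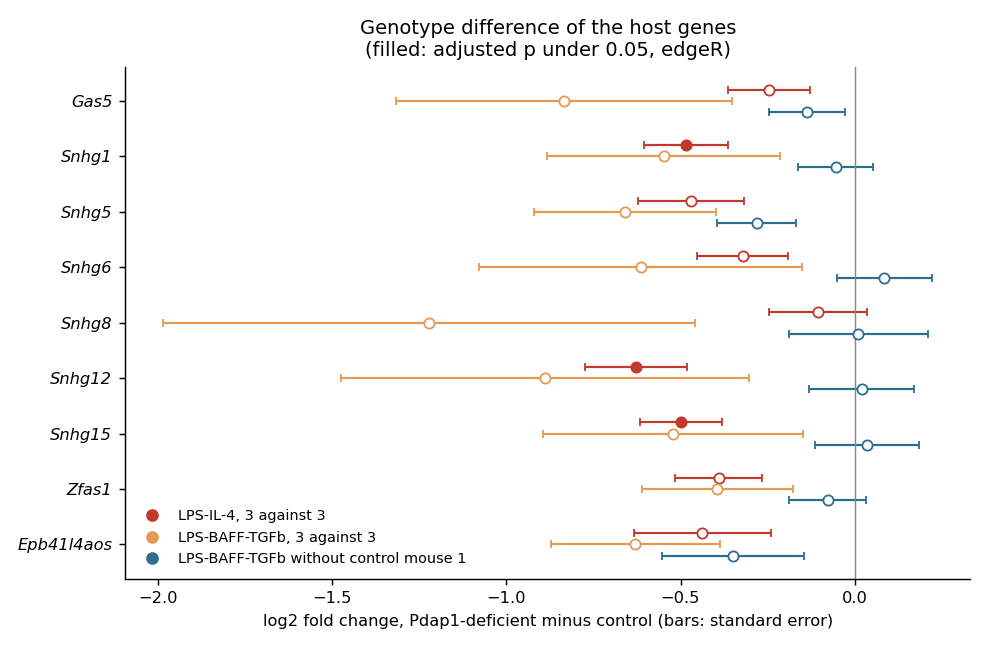
Log2 fold change of the 9 host genes, Pdap1-deficient minus control, with its standard error, from edgeR. In LPS-IL-4 all 9 values lie below 0 and 3 pass the test (filled), while in LPS-BAFF-TGFb the median moves from -0.63 to -0.05 when the library of control mouse 1 is left out.

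Ribosomal protein genes were set beside the hosts. The pyrimidine run at the start was found in 44.3% of their windows, in 4 of the 9 member windows and in 18.3% of all windows. Of the members with the run, Snhg3 was not tested and Snhg12 had the largest LPS-IL-4 difference (-0.63). Gas5 (-0.25) and Snhg8 (-0.11) had the 2 smallest. In LPS-IL-4, 9 of 80 ribosomal protein genes (11.2%) were called lower and none higher. Their median log2 fold change was -0.34, and 80 of 80 had a value below 0. The smallest adjusted p were those of Rplp1 at -0.66 (adjusted p = 0.0124), Rps18 at -0.54 (adjusted p = 0.0283), Rpl37 at -0.58 (adjusted p = 0.0326) and Rpl36 at -0.73 (adjusted p = 0.0394, all edgeR). The counts of the 10 members per 1000 ribosomal protein counts, a ratio within a library that needs no scaling, were 23.5, 24.8 and 24.1 in LPS-IL-4 controls and 22.97, 22.5 and 23.5 in Pdap1-deficient cultures. Before rounding, the highest Pdap1-deficient value, 23.46, lay just below the lowest control value, 23.51. In the other cultures the ratio was 30.3, 22.7 and 22.7 in controls and 22.5, 23.4 and 24.5 in Pdap1-deficient mice, so that 11 of the 12 libraries lay between 22.5 and 24.8.

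When the LPS-IL-4 libraries were scaled to their ribosomal protein counts, a choice made after seeing the data, no member passed the test (12.1% of all genes did, 1797 of the 1827 as higher, and the median of all genes moved from 0.02 to 0.35). The members' median was then -0.13, from -0.30 for Snhg12 to 0.22 for Snhg8. Snhg1, Snhg5, Snhg12 and Snhg15 stayed below controls without overlap, as 2.75% of all genes did. Gas5 and Snhg8 were above controls without overlap on this scale, as were 40.5% of all genes, so their sign turned. Gas5 had 5.78, 6.16 and 6.31 counts per 1000 ribosomal protein counts in controls and 6.34, 6.57 and 6.34 in Pdap1-deficient cultures. Snhg12 had 1.44, 1.39 and 1.65 in controls and 1.16, 1.201 and 1.28 in Pdap1-deficient cultures.

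The likeness of the 2 sets was also seen across libraries. With each gene's log2 level taken relative to its mean, the mean over the 9 members was 0.03, 0.14 and 0.26 in LPS-IL-4 controls and -0.14, -0.47 and -0.15 in Pdap1-deficient cultures, and that over the 80 ribosomal protein genes was 0.01, 0.07 and 0.24 against -0.13, -0.42 and -0.17. The genes with the highest Pearson r to the mean member profile over 12 libraries were Eef1b2 (0.985), Rpl8 (0.983), Rpl37 (0.979), Rps3 (0.979), Rps20 (0.979), Eef1g (0.978), Rpl13 (0.977), Nop10 (0.976), Rpl31 (0.975) and 2410015M20Rik (0.975). Eef1b2 and Eef1g encode subunits of translation elongation factor 1. Without the deep library their r was between 0.895 and 0.948 over 11 libraries, and the ranking changed. Clpp (0.972), Gm6863 (0.966), Nup85 (0.965), Ruvbl2 (0.964) and Rack1 (0.964) then led it, and its first 10 held no ribosomal protein gene. Among the first 500 genes, ribosomal protein genes numbered 45 over 12 libraries and 21 over 11, and their median r was 0.87 and 0.74, beside -0.03 and -0.05 for all genes. Between members, all 36 pairs had a positive r over 12 libraries (median 0.86) and 35 of 36 over 11 libraries (median 0.70). These points share libraries and depth.

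**Figure D3:**
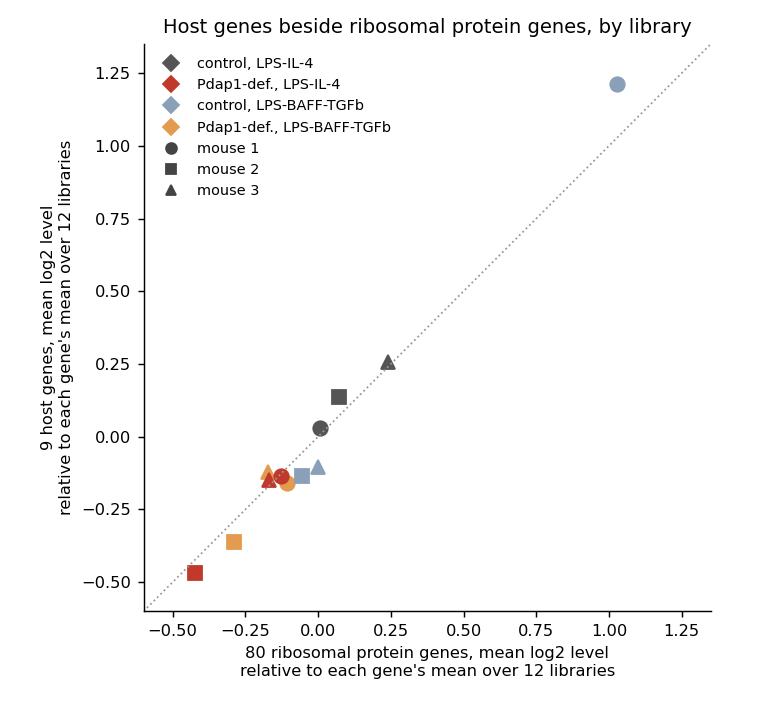
Mean log2 level of the 9 host genes against that of 80 ribosomal protein genes in each of the 12 libraries, each gene relative to its own mean, with colours for groups, symbols for mouse numbers and a dotted line of equal values. The libraries lie near the line, from Pdap1-deficient mouse 2 in LPS-IL-4 at -0.47 and -0.42 to the deep library of control mouse 1 in LPS-BAFF-TGFb at 1.21 and 1.03.

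Other genes of the snoRNA pathway were counted in LPS-IL-4 with the same fit, in which 2.12% of all 15074 genes were called lower. Of the other noncoding hosts on the list, 7 were tested and 1 was called lower, 1110038B12Rik. It stood at 88.7, 92.0 and 102 CPM in controls and at 61.0, 44.0 and 54.5 CPM in Pdap1-deficient cultures, without overlap (log2 difference -0.84, SE 0.14, adjusted p = 0.00967, edgeR). The median of those 7 was -0.36. Of the 18 protein-coding hosts, Ppan (-0.62, adjusted p = 0.0274) and Rcc1 (-0.54, adjusted p = 0.0315, edgeR) were called lower, with a median of -0.32.

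Of 18 proteins that form or assemble snoRNA particles, 3 (16.7%) were called lower and all 18 had values below 0, with a median of -0.42. These were Nop10 at -0.70 (adjusted p = 0.0425) and Nhp2 at -0.66 (adjusted p = 0.0471), both core proteins of H/ACA particles, and the assembly ATPase Ruvbl2 at -0.57 (adjusted p = 0.0437, edgeR). Among 20 NMD factors, 1 (5%) was called lower, beside 2.12% of all genes called lower and 4.92% called in either direction. It was Upf1, the central helicase of the pathway, at -0.62 (SE 0.10, adjusted p = 0.00875, edgeR), and the median of the 20 was -0.15. None of 15 general decay factors was called (median -0.14), the smallest adjusted p among the 2 with the largest differences being 0.0861 for Lsm1.

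None of the neighbours divergent from Snhg1, Gas5 and Zfas1 was called lower in Pdap1-deficient LPS-IL-4 cultures. Slc3a2, the heavy chain of amino acid transporters, starts 106 bases from Snhg1 on the opposite strand. It stood at 133, 137 and 151 CPM in LPS-IL-4 controls and at 251, 227 and 239.7 CPM in Pdap1-deficient cultures. Slc3a2 was thus higher in every Pdap1-deficient library, by 0.76 on the log2 scale (SE 0.10, adjusted p = 0.00363, edgeR), where Snhg1 was lower by 0.48. In LPS-BAFF-TGFβ, Slc3a2 stood at 103, 96.1 and 99.7 CPM in controls and at 187, 183 and 166 CPM in Pdap1-deficient mice (0.85, SE 0.10, adjusted p = 0.00805, edgeR). The deep library of control mouse 1 was not apart for Slc3a2, although it had 156.7 CPM of Snhg1 beside 73.4 and 67.1 CPM in the other controls. The 105 bases between the annotated GENCODE starts are shown because both genes begin at their ends, Slc3a2 leftward and Snhg1 rightward.
Slc3a2-Snhg1 (chr19:8723370-8723474, plus strand): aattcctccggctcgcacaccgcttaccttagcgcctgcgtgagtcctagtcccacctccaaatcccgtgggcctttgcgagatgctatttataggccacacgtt

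Zbtb37, divergent from Gas5, differed by 0.07 (adjusted p = 0.709, edgeR) and Znfx1, divergent from Zfas1, by 0.04 (SE 0.16, adjusted p = 0.915, edgeR) in LPS-IL-4. Znfx1 stood at 141.5, 140.7 and 152.5 CPM in controls and at 116.5, 194.5 and 138.6 CPM in Pdap1-deficient mice 1, 2 and 3. Mice 1 and 3 thus lay below every control and mouse 2 above. Rcc1, which overlaps Snhg3 on its strand, was lower by 0.54 as given among the hosts. Mcmdc2, which overlaps Snhg6 on the opposite strand, differed by -0.46 and did not pass (adjusted p = 0.0945, edgeR), and 11.1% of the exonic bases of Snhg6 lie in opposite-strand exons. No interaction between neighbours was tested.

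**Figure D4:**
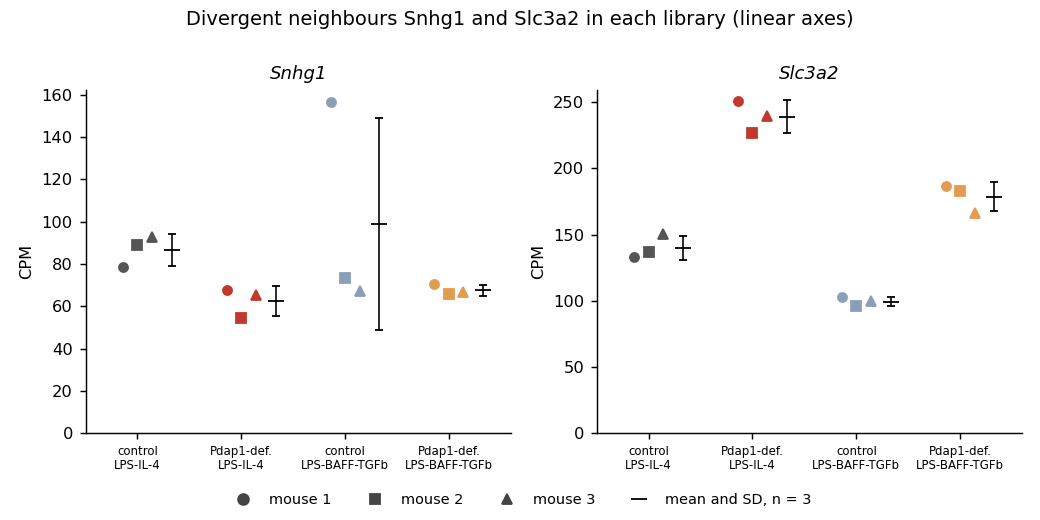
Level of Snhg1 and of its divergent neighbour Slc3a2 in CPM (linear axes) in each library, with 1 symbol per mouse number and the mean and SD of each group of 3. In LPS-IL-4 Snhg1 is lower and Slc3a2 higher in all 3 Pdap1-deficient libraries, and the deep library of control mouse 1 is high for Snhg1 at 156.7 CPM and not for Slc3a2 at 103 CPM.

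The same question in LPS-BAFF-TGFβ cultures turned on 1 library. No member passed the test, with 0.462% of 14079 genes called, although all 9 values lay below 0 with a median of -0.63 (from -1.22 for Snhg8 to -0.39 for Zfas1). Of the 9 members, 2 had an unadjusted p under 0.05, as had 1486 of all 14079 genes. DESeq2 called none of the 9 and 172 of all genes. The library of control mouse 1 was the highest of all 12 for 9 of 9 members, at 1.61 to 4.94 times the mean of the other 2 controls. Its members took 0.117% of counts, beside 0.0526% and 0.0556% in the others, and ribosomal protein genes 3.86%, beside 2.31% and 2.45%. Pdap1-deficient mouse 2, with 549 CPM of myeloid markers, was the lowest of its group for 8 of 9 members, and without it the median was -0.58 with none called.

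Gas5 shows the pattern, with 475, 147 and 182 CPM in control mice 1, 2 and 3 and 147, 148 and 154 CPM in Pdap1-deficient mice. Snhg8 stood at 61.3, 12.04 and 12.8 CPM against 14.2, 10.1 and 13.0 CPM, and Snhg12 at 77.4, 21.7 and 21.7 CPM against 21.3, 20.2 and 24.1 CPM. For Snhg8 and Snhg12, controls 2 and 3 lay within the Pdap1-deficient range, and for Gas5 control 2 lay within it and control 3 above it. Snhg5 and Epb41l4aos were the 2 members without overlap, as 8.88% of all genes were in the lower direction. Snhg5 stood at 205, 105 and 111 CPM against 90.0, 77.8 and 97.4 CPM, and Epb41l4aos at 22.8, 14.2 and 14.0 CPM against 11.5, 8.67 and 12.8 CPM.

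Without the library of control mouse 1, the members' median was -0.05, with 5 values below 0, 4 above and none called (0.795% of 14585 genes were). The largest remaining differences were -0.35 for Epb41l4aos (adjusted p = 0.571, edgeR) and -0.28 for Snhg5 (adjusted p = 0.367, edgeR). The 80 ribosomal protein genes moved from a median of -0.57 to -0.16, with 70 of 80 below 0 and none called. In the same fit the other noncoding hosts had a median of -0.22 (7 of 8 below 0) and the protein-coding hosts -0.27 (17 of 18). Proteins of snoRNA particles were at -0.29 (16 of 18), NMD factors at -0.06 (11 of 20) and general decay factors at -0.12 (9 of 15). None of these was called. The values called lower in LPS-IL-4 were -0.05 for Snhg1, 0.02 for Snhg12 and 0.04 for Snhg15 in this fit.

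The difference between the genotype effects was tested over all 12 libraries. No member passed, and 0 of 15794 genes (0%) did with edgeR, while 755 genes had an unadjusted p under 0.05 and DESeq2 called 6. The members' interaction values were all negative with a median of -0.21, and all positive with a median of 0.30 without the deep library, again with none called. With control mouse 1 left out of both cultures and the mouse as a block, 197 of 15777 genes (1.25%) were called and no member, while 11 of 80 ribosomal protein genes were called, all as positive values, with a median of 0.26. Snhg12 came closest at 0.69 (SE 0.18, adjusted p = 0.0541), then Snhg1 at 0.50 (SE 0.13, adjusted p = 0.0577) and Snhg15 at 0.58 (SE 0.16, adjusted p = 0.0640, edgeR), where a positive value is a difference less negative in LPS-BAFF-TGFβ than in LPS-IL-4.

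Stimulation was compared within each genotype, LPS-BAFF-TGFβ minus LPS-IL-4. In control mice no member passed with all libraries, where 19.3% of 14882 genes did, and the median was 0.20. Without the deep library 5 members passed, 4 lower and 1 higher, where 15.9% and 15.8% of 15299 genes did. Snhg12 fell by 0.72 (SE 0.13, adjusted p = 0.000473), Snhg15 fell by 0.60 (SE 0.11, adjusted p = 0.000405), Zfas1 fell by 0.36 (SE 0.08, adjusted p = 0.00212) and Snhg1 fell by 0.30 (SE 0.09, adjusted p = 0.0206, all edgeR). Snhg5 rose by 0.25 (SE 0.08, adjusted p = 0.0325, edgeR). The cultures of mice 2 and 3 with the mouse as a block gave 5 members lower, the same 4 and Snhg6 (-0.36, adjusted p = 0.0152, edgeR), where 18.1% of genes were lower, while Snhg5 did not pass (0.19, adjusted p = 0.0939) and 18% of genes were higher.

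By mouse, the log2 difference of Snhg12 was 1.26 in control mouse 1, -0.58 in mouse 2 and -0.98 in mouse 3. For Snhg15 it was 0.76, -0.66 and -0.66. For Gas5 it was 1.87, 0.04 and 0.16, and for Snhg5 1.31, 0.13 and 0.21. Gas5 and Snhg5 were the only 2 of the 9 members with a positive difference in all 3 control mice, and the other 7 were positive in mouse 1 and negative in mice 2 and 3. Of the ribosomal protein genes, 17 of 80 were lower and 3 higher in controls without the deep library, where 15.9% and 15.8% of all genes were.

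In Pdap1-deficient mice Gas5 and Snhg5 were again higher in LPS-BAFF-TGFβ. Gas5 stood at 131, 111 and 128 CPM with LPS-IL-4 and at 147, 148 and 154 CPM with LPS-BAFF-TGFβ. Snhg5 stood at 74.7, 51.1 and 73.3 CPM against 90.0, 77.8 and 97.4 CPM. These 2 members did not overlap between cultures, as 15.2% of all genes did in that direction. Neither passed without a block (0.28, adjusted p = 0.118 for Gas5, and 0.42, adjusted p = 0.132 for Snhg5, edgeR), where 11.5% of 14617 genes did.

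With the mouse as a block, which the design gives, both rose. Snhg5 rose by 0.43 (SE 0.09, adjusted p = 0.00118, edgeR) and Gas5 rose by 0.28 (SE 0.07, adjusted p = 0.00958, edgeR), where 12.8% of genes were called higher. By mouse, Snhg5 differed by 0.27, 0.61 and 0.41 and Gas5 by 0.16, 0.41 and 0.27. With mouse 1 left out and the block kept, a choice made after seeing the data, Snhg5 rose by 0.53 (SE 0.10, adjusted p = 1.04e-05) and Gas5 rose by 0.36 (SE 0.09, adjusted p = 0.000621, edgeR), where 12.3% of genes were called higher. With all 3 mice and the block, the other 7 members had values from -0.20 for Snhg8 to 0.12 for Snhg1, and none passed. Snhg12 and Snhg15, lower in 2 of 3 control mice, were at -0.09 (adjusted p = 0.601) and -0.08 (adjusted p = 0.604, edgeR) here.

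**Figure D5:**
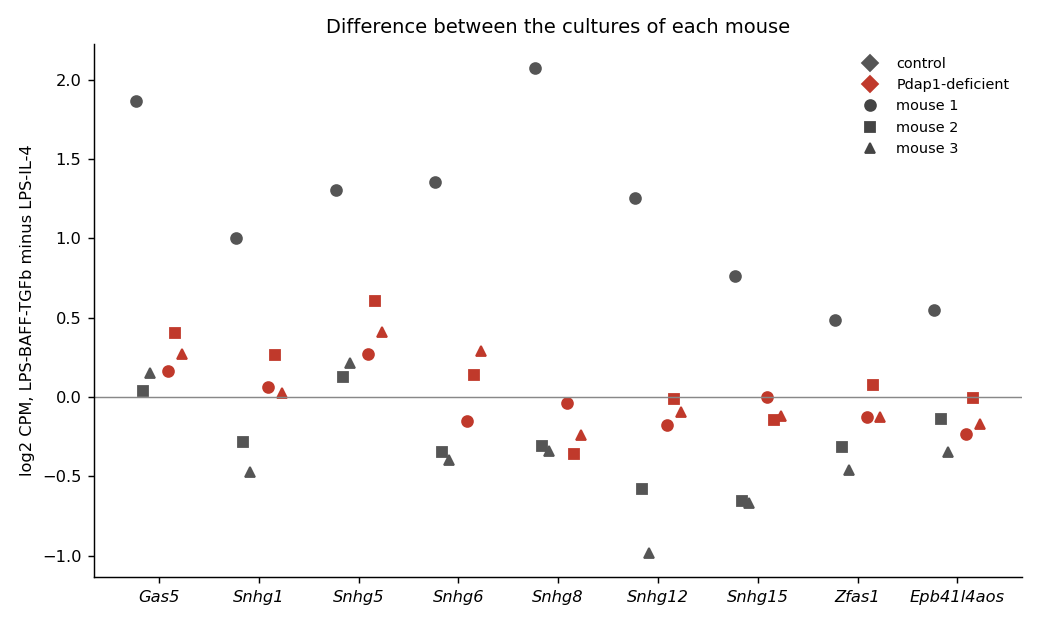
Difference in log2 CPM between the cultures of each mouse, LPS-BAFF-TGFb minus LPS-IL-4, for 9 host genes, with control mice in grey and Pdap1-deficient mice in red. Gas5 and Snhg5 lie above 0 in all 6 mice, and control mouse 1 lies highest for all 9 genes, between 0.48 and 2.07.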

How the data were processed

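RNA-seq of 12 mouse B cell libraries was analysed from tables of the whole series. The authors trimmed reads with Trim Galore 0.6.1, mapped them to GRCm38 with STAR 2.6 and counted them per Ensembl gene with HTSeq 0.9.1, per the submitters' processing notes. They deposited these counts without normalization, and a second table holding a normalized signal, for which the authors scaled each library's column by a size factor. Only the counts were tested. The annotation release and strand setting of the counting are not given in the sources used here. Symbols, positions and exons were taken from GENCODE M21 on GRCm38, which matched 55536 of 55536 identifiers.

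Groups came from the labels, and mouse numbers pair the cultures of a mouse by the series design. For the Pdap1-deficient cultures, the deviations of same-numbered libraries from their group means correlated at 0.63, 0.67 and 0.35, and for the control cultures at -0.24, 0.25 and -0.10. Genotypes within a stimulation, stimulations within a genotype and their interaction (5 comparisons) were tested on all genes in R 4.3.3 by edgeR 4.0.16 (filterByExpr, TMM scaling, robust quasi-likelihood F test) at an adjusted p (Benjamini-Hochberg) under 0.05. The biological coefficient of variation, as a median over genes, was between 17.2% and 20.9%. It was not compared with the counting error of each gene. No library was a copy of another in its group. On simulated data, 200 genes were changed by 1.5 on the log2 scale. For the genotypes edgeR recovered 73% in LPS-IL-4 (14 other calls among 15074 genes) and 70.5% in LPS-BAFF-TGFβ (12 among 14079). For the stimulation it recovered 76.5% in control mice (18 among 14882) and 67% in Pdap1-deficient mice (9 among 14617). For the interaction it recovered 47% (8 among 15794). All member differences in these 5 comparisons were smaller than 1.5, and recovery at their size was not simulated.

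Alternatives were DESeq2 1.42.0 with its Wald test, DESeq2 size factors, no filter, at least 10 counts in every library, each library left out, a replicate block, 1 fit of the 12 libraries, an exon length and GC offset alone and together with that block, thinning to 4579793 counts, and an adjusted p under 0.01. Scaling to ribosomal protein counts and the deep library left out with the block, or for every list, and Pdap1-deficient mouse 1 left out with the block were added after seeing the data. The sum over the B cell marker list is not reported here. The members and gene lists were chosen with earlier results of these data known. Named genes were the members, Pdap1, neighbours that overlap a member or start within 1000 bases of it on the opposite strand, snoRNAs with at least 50 counts, and in each list up to 4 genes with the smallest adjusted p, or the 2 with the largest difference where none passed. Figures were drawn with matplotlib 3.10.9 in Python 3.11.15, with pandas 2.3.3.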

Additional observations from a re-analysis of the deposited data

How the results depend on the processing

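Each of the 9 members tested kept a value below 0 for the genotypes in LPS-IL-4 under every alternative run, except Snhg8 after thinning (0.15) and Gas5 and Snhg8 on the ribosomal protein scale, but the calls were less stable. The main fit called 3 members among 741 of 15074 genes. DESeq2 called 4 among 1217, no filter 5 among 1694 of 28723, and the replicate block 1 among 641. The length and GC offset with replicate block called 1 among 422. Called members were 0 with all 12 libraries in 1 fit (588 genes), an adjusted p under 0.01 (130) and the ribosomal protein scale (1827). With each library left out in turn, 0 to 4 members were called among 69 to 1759 genes. The replicate numbers do not pair the genotypes, since these are different animals. Same-numbered libraries of the genotypes correlated between -0.17 and 0.16, a range that does not by itself decide the pairing. For the stimulation in Pdap1-deficient mice, where the pairing comes from the design, the main fit called 0 members among 1675 genes. The block called 2 among 3854, the offset with the block 2 among 3872, and the block without mouse 1 called 2 among 3657. Beside this and the genotypes in LPS-IL-4, the block alone changed no count of members. For the stimulation in controls, leaving out libraries gave 0 to 5 members among 1608 to 4858 genes, and 5 among 5281 with the deep library left out and the block. There Snhg1 ranged from -0.30 to 0.40 and Snhg12 from -0.72 to 0.49, the lowest values being without the deep library and past the threshold, with the sign turned, as were Snhg1 (-0.36), Snhg6 (-0.36) and Snhg12 (-0.77) with the block as well.

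Among all genes, calls for the genotypes in LPS-IL-4 moved from 741 to 1217 with DESeq2, 1694 with no filter, 422 with the length and GC offset and block, 130 at 0.01, 1827 on the ribosomal protein scale and 69 to 1759 with a library left out. In LPS-BAFF-TGFβ they moved from 65 to 172, 257 with no filter, 133 with all 12 libraries, 27 at 0.01 and 19 to 116 with a library left out. For the stimulation in controls they moved from 2874 to 1515 at 0.01, 1608 to 4858 with a library left out and 5281 with the deep library left out and the block. In Pdap1-deficient mice they moved from 1675 to 853 at 0.01, 3854 with the block, 3872 with the offset and block, 3657 with the block and without mouse 1 and 908 to 2235 with a library left out. For the interaction they moved from 0 to 6 with DESeq2, 1 with no filter, 1 with the offset, 4 with the offset and block, 0 to 1 with a library left out and 197 without control mouse 1 and with the block. The cause of these changes was not tested. Snhg3, with 1 count, could not be tested.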
